A study of Mus musculus with 8 samples.

Results

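Gata4, Myh11, Sox17 and Cd93 are 4 marker genes of somatic cells, and were followed here through libraries made from male germ cell fractions. They were taken by symbol from the m6A peak lists and joined to the count table by Ensembl identifier, and all 4 were found among the 53465 genes of that table. Gata4 (ENSMUSG00000021944) encodes a zinc finger transcription factor of Sertoli cells, the nurse cells of the seminiferous tubule, and is also made by Leydig cells. Myh11 (ENSMUSG00000018830) encodes the myosin heavy chain of smooth muscle and of the contractile myoid cells around the tubules. Sox17 (ENSMUSG00000025902) encodes an HMG box transcription factor of arterial endothelium, and Cd93 (ENSMUSG00000027435) a lectin-like membrane receptor of endothelial and some myeloid cells.

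The study used methylated RNA immunoprecipitation sequencing, in which RNA fragments that carry N6-methyladenosine (m6A) are pulled down with an antibody and sequenced beside the unselected fragments, called input. Testes of C57BL/6 mice aged 12 weeks gave the spermatogenic cells, either of the wild type (WT) or of the genotype Alkbh5-/- (KO), a mutant of the enzyme that takes m6A off RNA. Fractions are labelled PA and RO, which by the title of the series stand for pachytene spermatocytes and round spermatids. Each combination of genotype and fraction has 1 input and 1 immunoprecipitated sample (8 samples in all), so differences between groups could not be tested or checked in replicates, and the number of animals behind a library is not given in the sources used here.

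Testicular germ cells lie in direct contact with Sertoli cells inside the tubule, whereas myoid cells, Leydig cells and vessels lie in its wall or outside it. Fractions of germ cells are prepared from dissociated testis, and transcripts of these other cells serve as a measure of somatic RNA in such a preparation. In bulk RNA, fewer cells of a type and less RNA per cell cannot be told apart.

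The 4 input libraries held between 9921365 and 13147239 counts. Levels are given in CPM, counts scaled to a common library total with TMM factors, and 95% intervals (exact Poisson for a level, exact binomial for a ratio) cover counting error only. Log2 ratios of single genes were computed with a prior count of 2, and their intervals without it. Before the results, the fraction labels were set against germ cell markers. Of 10 round spermatid markers with a symbol, 5 were at least 2-fold higher in RO than in PA in WT and 2 in KO, with median log2 ratios of 1.01 and 0.84. The shares over all genes were 21.5% and 17.5%, so the count in KO was near its background. Symbols come only from peaks, and of the 5 in WT, Akap4, Acrv1 and Tex36 had a peak in the WT RO list alone. They may thus have entered through a library in which they are higher than in WT PA, a selection that the 21.5% does not carry. The 8 spermatocyte markers with a symbol did not separate the fractions, since none was 2-fold apart in either genotype and their median log2 ratios were -0.01 in WT and 0.14 in KO. Sycp1, which encodes a protein of the synaptonemal complex, stood at 360 CPM in WT PA and 364 CPM in WT RO. The summed level of the 10 spermatid markers was 628 CPM in the KO PA library, above the 534 CPM of WT RO. Alkbh5 itself has no symbol in the files and was not analysed here, so the genotype labels were not checked against it. Stage comparisons below are therefore comparisons of the libraries as labelled.

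No library lacked any of the 4 genes. Together they took 4130 counts (0.0314% of the library) in WT PA and 2016 (0.0167%) in WT RO, and 3841 (0.0387%) in KO PA and 3048 (0.0300%) in KO RO, with a Wilson 95% interval for WT RO of 0.0160% to 0.0174%. The summed share was lowest in WT RO. Most of these counts belonged to Myh11, and the genes are described one by one because counts are not scaled to transcript length and cannot be ranked between genes.

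**Figure D1:**
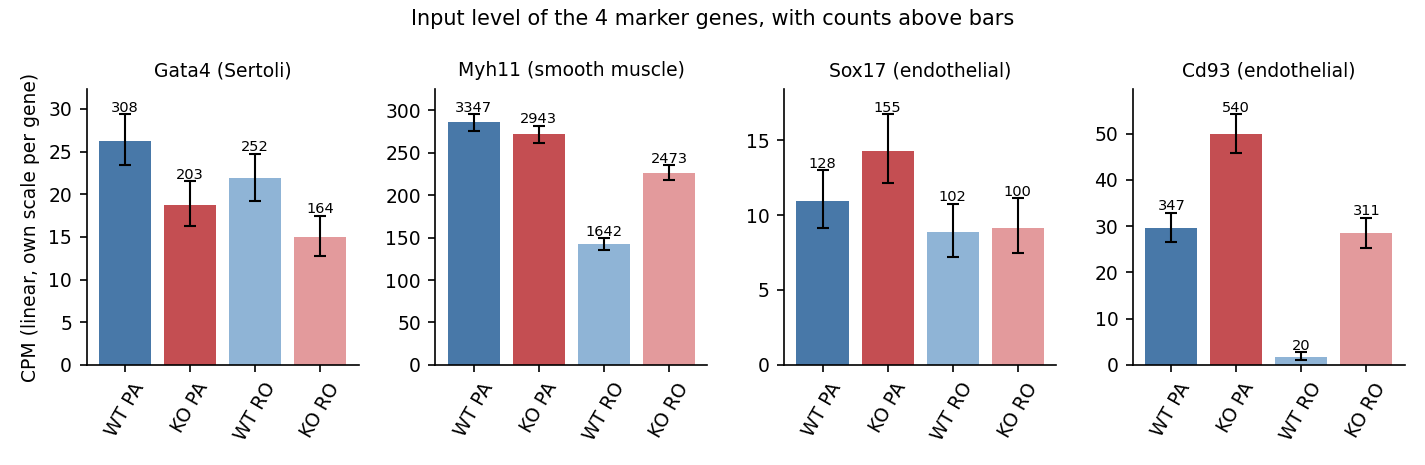
Input level of Gata4, Myh11, Sox17 and Cd93 in CPM (linear axis, a scale of its own for each gene) in the WT PA, KO PA, WT RO and KO RO libraries. Bars are single libraries, error bars are 95% Poisson intervals for counting error, and the numbers above the bars are counts. Cd93 stood at 20 counts in WT RO against 311 to 540 in the other libraries, while Gata4 and Sox17 varied less.

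Gata4 had 308 counts in WT PA (26.3 CPM), 203 in KO PA (18.7 CPM), 252 in WT RO (21.9 CPM) and 164 in KO RO (15 CPM). Both KO libraries were thus below both WT libraries, with log2 ratios KO over WT of -0.48 in PA (-0.75 to -0.23) and -0.54 in RO (-0.84 to -0.25). These ratios lie inside the spread of other genes. For genes whose 2 counts summed to 320 to 640, the log2 ratio had a robust SD (median absolute deviation, scaled) of 0.92 in PA and 0.83 in RO, a spread that holds real differences as well as error. Between fractions, Gata4 was lower in RO by a log2 ratio of -0.26 in WT and -0.32 in KO, again within that spread (0.82 and 0.60) for the same counts. In order of level the libraries were WT PA, WT RO, KO PA and KO RO, and the difference between WT RO and KO PA was not compared with a spread.

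Other Sertoli genes did not share the order of Gata4. Of 23 listed Sertoli markers, 10 had a symbol, and their summed level was 480 CPM in WT PA (467 to 492), 590 CPM in KO PA, 352 CPM in WT RO and 442 CPM in KO RO. The sum was higher in KO in both fractions, by 1.23 times in PA (1.19 to 1.28) and 1.25 times in RO (1.2 to 1.31), opposite to Gata4. The 3 markers with the highest mean level were Vim, an intermediate filament gene that other somatic cells also express, Clu, which encodes clusterin, and Wt1, a transcription factor gene of Sertoli cells. In PA, Wt1 had 89.5 CPM in the WT and 125 CPM in the KO library, and in RO it had 50.5 and 67.9 CPM, so it was higher in KO and higher in PA. Sox9, the factor that directs Sertoli fate, ranged only from 6.59 to 9.33 CPM. Inha, an inhibin subunit gene, was lower in KO PA than in WT PA with a log2 ratio of -0.57, near that of Gata4, and it was -0.13 in RO. Sox9 was also lower in KO PA (-0.14), while the median log2 ratio of the 10 markers in PA was 0.25. At least 2-fold higher in KO RO were 2 of 9 Sertoli markers tested. They were Kitl, the gene of KIT ligand (log2 ratio 1.28), and Inhbb, an inhibin and activin subunit gene (1.54). The share over all genes was 23.1%, and over genes with a symbol, as these markers are, 13.3%. None of the 9 was 2-fold lower (18.9% of all genes). In PA only Trf, the transferrin gene, passed 2-fold of 10 tested, beside 23.8% of all genes higher, and it was at 0 counts in 3 libraries and at 17 counts in KO PA. Inhbb was lower in KO in PA, opposite to RO, with a log2 ratio of -0.86 on 47 WT and 23 KO counts.

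Myh11 had 3347 counts in WT PA (286 CPM), 2943 in KO PA (272 CPM), 1642 in WT RO (142 CPM) and 2473 in KO RO (226 CPM). The WT RO library was the low one, and the other 3 lay within 1.5-fold of each other on this scale. In PA the log2 ratio KO over WT was -0.07 (-0.14 to -0.00094), and its sign changed to 0.22 when libraries were scaled by total counts only. In RO it was 0.67 (0.58 to 0.76), beside a robust SD of 0.56 among the genes of the highest counts. Between fractions Myh11 was lower in RO by a log2 ratio of -1.0 in WT (-1.09 to -0.92), where the robust SD was 0.39, and by -0.26 in KO. The WT value lies on the 2-fold threshold, and 3 other scalings put it just inside.

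In the muscle list, 7 of 15 markers had a symbol, and several stood beside Myh11 in WT. The log2 ratio RO over PA in WT was -0.97 for Cald1, which encodes caldesmon, -1.03 for Lmod1, which encodes the smooth muscle leiomodin, and -1.06 for Synpo2, which encodes an actin-binding protein. With Myh11, 3 of the 7 were at least 2-fold lower in WT RO, a direction in which 18.7% of the 23979 genes tested passed. All 3 lie close to the threshold, and the count was 2 with DESeq2 size factors or TMM over all genes and 0 with total counts only. Lmod1 and Synpo2 had no peak in the WT RO list, so they may have entered through libraries in which they are higher. Mylk, the myosin light chain kinase gene and the marker with the highest mean level, was an exception at 332 CPM in WT PA and 355 CPM in WT RO. In KO the median log2 ratio RO over PA of the 7 was -0.15, and 1 of them was 2-fold lower, beside 15.1% of all genes, namely Myocd, which encodes a coactivator of smooth muscle genes. The 7 markers summed to 844 CPM in WT PA and 616 CPM in WT RO, and to 700 CPM in KO PA and 620 CPM in KO RO. Between genotypes, 0 of the 7 were 2-fold apart in either fraction, where 43.7% (PA) and 42% (RO) of all genes were. Without Mylk the sum was 261 CPM in WT RO against 406 CPM in KO RO.

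Sox17 had 128 counts in WT PA (10.9 CPM), 155 in KO PA (14.3 CPM), 102 in WT RO (8.85 CPM) and 100 in KO RO (9.14 CPM). KO PA was the highest library, and both RO libraries were at about the same level. The KO libraries were above the WT libraries by a log2 ratio of 0.38 in PA (0.04 to 0.74), and of 0.05 in RO (-0.36 to 0.46). The interval in RO includes 0, and the robust SD for genes whose counts summed to 160 to 320 was 1.1 in PA and 0.99 in RO. The RO libraries were lower than the PA libraries by log2 ratios of -0.30 in WT (-0.69 to 0.08) and -0.64 in KO (-1.02 to -0.27). Both were also within the spread of other genes (1.03 and 0.79), and the interval in WT includes 0.

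Cd93 had 347 counts in WT PA (29.6 CPM), 540 in KO PA (49.8 CPM), 20 in WT RO (1.73 CPM, 1.06 to 2.68) and 311 in KO RO (28.4 CPM, 25.4 to 31.8). WT RO stood far below the other 3 libraries, and KO PA was the highest. In RO the level was 16.4-fold higher in KO than in WT by CPM, with an interval of 3.38 to 4.77 on the log2 scale. With the prior count of 2 the log2 ratio was 3.90. Of 3184 genes whose counts in the RO libraries summed to 320 to 640, 0.157% had a log2 ratio of at least this size. In PA the ratio was 0.75 (0.55 to 0.95), of the same sign and close to the robust SD of 0.73 for genes of its count. Between fractions Cd93 was lower in RO by a log2 ratio of -3.96 in WT (-4.82 to -3.44) and -0.81 in KO (-1.02 to -0.61). The comparisons in RO and in WT share the WT RO library, so the values of 3.90 and -3.96 both rest on its 20 counts.

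Counted over the 4 genes, 0 were at least 2-fold apart between genotypes in PA, where 43.7% of 24331 tested genes were, and 1 in RO, where 42% were (10412 of 24763). Between fractions, 2 were at least 2-fold lower in RO in WT, namely Cd93 and, on the threshold, Myh11, and 0 passed in KO. Over all genes, 18.7% in WT and 15.1% in KO were at least 2-fold lower in RO. The share past 2-fold either way was 40.2% in WT and 32.7% in KO. Among genes with a CPM of 10 or more in either library, as most of these levels are, the shares were 26.4% and 24.6% between genotypes in PA and RO, and 21.1% and 10.9% between fractions for the WT and KO libraries. For KO over WT, the 4 genes had a median log2 ratio of 0.16 in PA and 0.36 in RO, against 0.03 and 0.04 over all genes tested. It was -0.65 for RO over PA in WT and -0.48 in KO, against 0.00 and 0.01, and all 4 genes were lower in RO in both genotypes. For Sox17 in WT the interval of this ratio (-0.69 to 0.08) includes 0. The share of all genes lower in RO in both genotypes was not computed.

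The endothelial list showed the pattern of Cd93 in more genes than Sox17. Of 22 endothelial markers, 15 had a symbol, and 12 of the 15 were at least 2-fold higher in KO RO than in WT RO, beside 23.1% of all genes tested in that direction. None was 2-fold lower (18.9% of all genes were), and the median log2 ratio was 1.66. Without Cd93 and Sox17 the count was 11 of 13. A marker has a symbol only through a peak in some list, and 5 of the 12 had peaks in KO lists only, so they may have entered through the genotype in which they are high. Of the 9 markers with a peak in a WT list, 7 were 2-fold higher, where 11.4% of 6768 genes with such a peak were, and the share over genes with a symbol was 13.3%. All 9 had a peak in the WT PA list and only 2 in the WT RO list, which held peaks of 5800 genes. The 9 and the 6768 thus entered differently, and the 11.4% is not a matched background. Robo4, a receptor gene of endothelial cells, had 14 counts in WT RO and 112 in KO RO, a log2 ratio of 2.9. Kdr, which encodes the main receptor for vascular endothelial growth factor, had 7.72 CPM in WT RO and 39 CPM in KO RO. Eng, which encodes endoglin, had a log2 ratio of 2.92 and Pecam1, the gene of the junction protein CD31, 1.38. Sox17, the claudin gene Cldn5 (0.03) and Vwf, the gene of von Willebrand factor (0.80), were the 3 that stayed inside 2-fold.

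In PA, 4 of the 15 endothelial markers were at least 2-fold higher and 1 was 2-fold lower in KO, beside 23.8% and 19.9% of all genes, and the median log2 ratio was 0.60. Whether the genotype ratio differs between PA and RO was not tested. The summed level of the 15 was 347 CPM in WT PA (337 to 358), 547 CPM in KO PA, 170 CPM in WT RO (163 to 178) and 529 CPM in KO RO. The low library was again WT RO, at 0.322 times the KO RO sum (0.306 to 0.339). The 3 markers with the highest mean level were Ptprb, the gene of a phosphatase of endothelial junctions, Vwf and Cdh5, the gene of VE-cadherin. Cdh5 had 34.1 CPM in WT PA and 37.4 CPM in KO PA, against 24.1 and 59.8 CPM in the WT and KO libraries of RO. Within WT, 8 of the 15 were at least 2-fold lower in RO than in PA and 1, Cldn5, was higher, while within KO 1 was lower and 2 were higher. Over all genes tested, 18.7% were lower and 21.5% higher in WT RO, and 15.1% lower and 17.5% higher in KO RO. Only 2 of the 15, Vwf and Cdh5, had a peak in the WT RO list, and neither was among the 8. The 8 may thus have entered through libraries in which they are higher than in WT RO, a selection that the shares over all genes do not carry. These list members were chosen with earlier results of these libraries known.

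**Figure D2:**
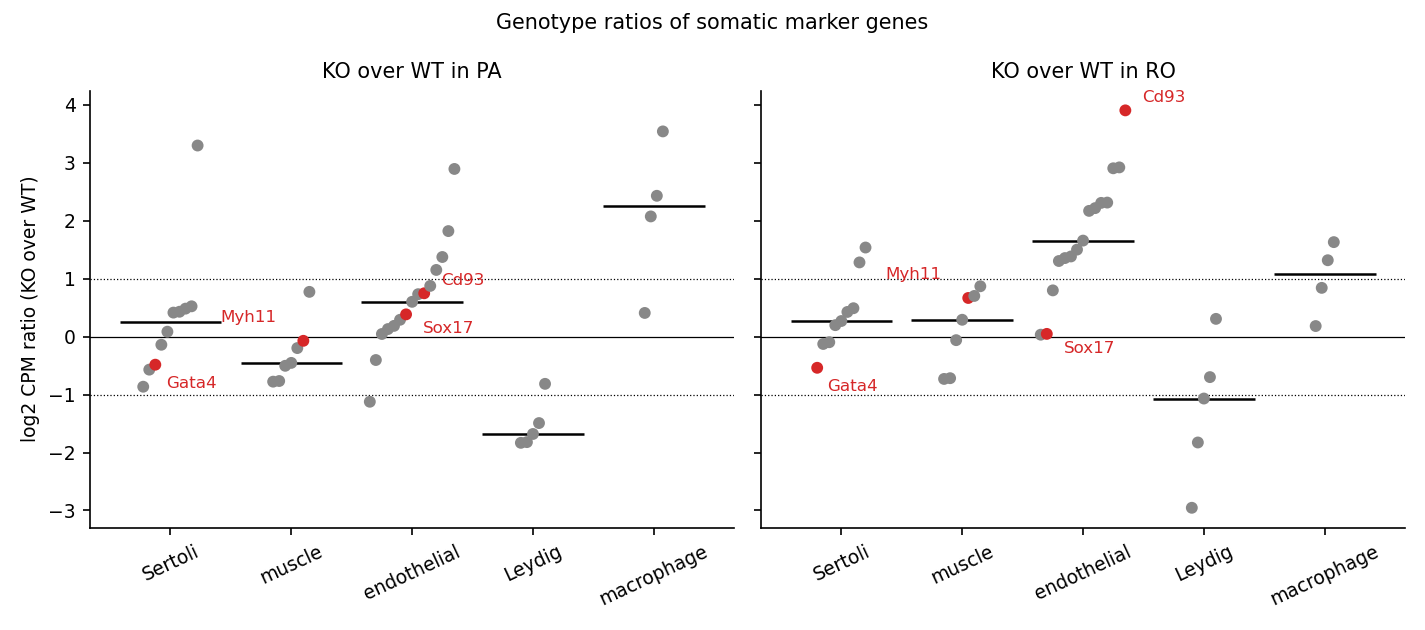
Log2 CPM ratio KO over WT of single marker genes (points) in PA (left) and RO (right) for the Sertoli, muscle, endothelial, Leydig and macrophage lists; red points are Gata4, Myh11, Sox17 and Cd93, bars are list medians, and dotted lines mark 2-fold. Points at the top of the Sertoli and macrophage columns in PA rest on 0 and 2 WT counts (Trf and C1qc). In RO, 12 of 15 endothelial markers lie above the upper dotted line.

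The other cell types did not all have the same direction. The summed level of 5 Leydig markers (of 12 listed) was 279 CPM in WT PA and 104 CPM in KO PA, and 116 and 61.8 CPM in the RO libraries in the same order, so it was lower in KO in both fractions, by 2.68 times in PA and 1.88 times in RO. At least 2-fold lower in KO were 4 of the 5 in PA and 3 in RO, beside 19.9% and 18.9% of all genes. The WT PA list held a peak for each of the 5, the KO PA list for 3 and the KO RO list for 0. These markers may thus have entered through the genotype in which they are high, a selection that the shares over all genes do not carry. Cyp11a1, the gene of the enzyme that starts steroid synthesis, had 74.8 CPM in WT PA against 20.9 CPM in KO PA; the RO libraries had 15.7 CPM (WT) and 9.60 CPM (KO), inside 2-fold. Nr5a1, which encodes a regulator of steroid genes, was higher in KO RO by a log2 ratio of 0.31. Gata4, which Leydig cells also express, was lower in KO as this list was. The summed level of 4 macrophage markers (of 12 listed) was 47.7 CPM in WT PA and 79.7 CPM in KO PA, and 64.4 and 91.0 CPM in the RO libraries, higher in KO. The summed level of the 10 spermatid markers was also higher in KO, at 2.33 times the WT sum in PA and 2.12 times in RO. At least 2-fold higher were 8 of them in PA and 6 in RO, beside 23.8% and 23.1% of all genes, with the same limit on entry through peaks. Acr (log2 ratios of -0.49 in PA and -0.61 in RO) and Acrv1 (-0.10 and -0.80) were lower in KO in both fractions, and Tex36 (-0.50) in RO. No marker of the muscle, endothelial or Leydig lists that had a symbol was at 0 counts in any library. The part of these cell types in the ratios of the 4 genes was not tested.

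**Figure D3:**
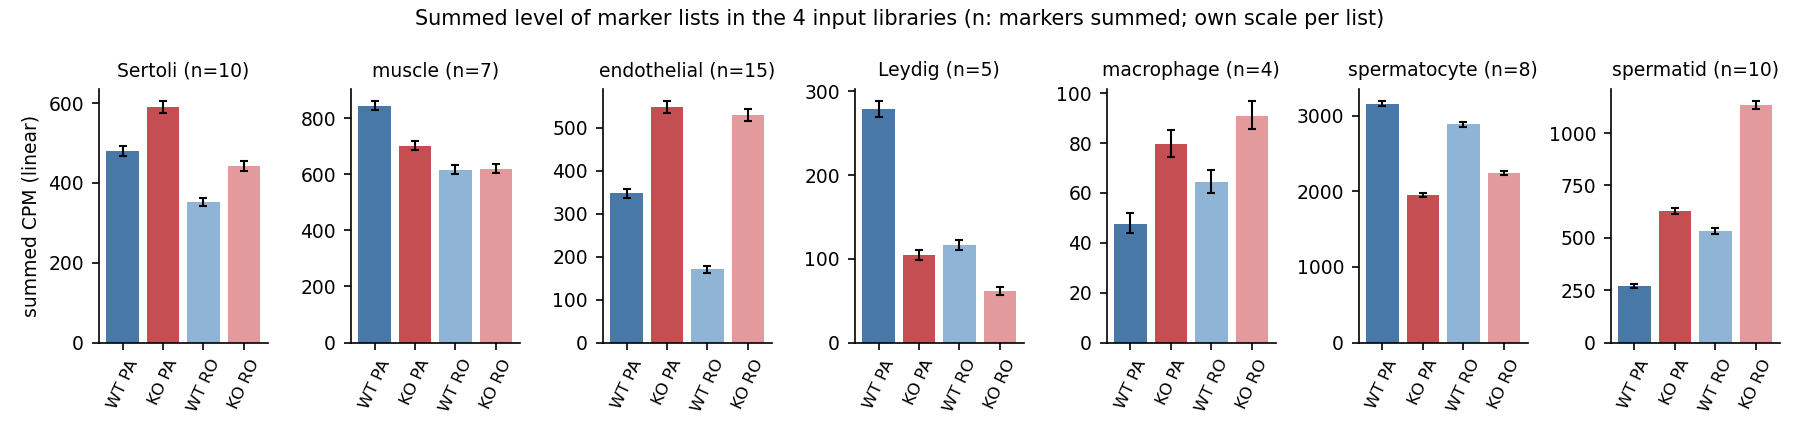
Summed CPM (linear axis, a scale of its own for each list) of the markers with a symbol in the 4 input libraries, for 5 somatic and 2 germ cell lists, with 95% Poisson intervals for counting error. The endothelial sum is lowest in WT RO at 170 CPM, the Leydig sum is highest in WT PA at 279 CPM, and the spermatocyte sum ranges from 1947 to 3164 CPM with no fall from PA to RO in KO.

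For each of the 4 genes, the genes with the most similar profile over the 4 libraries were found among 7040 candidates, by the Euclidean distance between log2 CPM values centred on the mean of the gene. For Gata4 they were Slc7a6os, Pura and Lrch3, at distances of 0.04, 0.05 and 0.06 against a median of 0.91 over all candidates. For Myh11 they were Arfip2, Wdr43 and Tfpi (0.09, 0.10 and 0.11), and for Sox17 AC122828.3, Pex19 and Abcc1 (0.06, 0.07 and 0.08). For Cd93 the nearest were farther away, at 0.31 for Gm6089 and 0.75 for Cox15, which had 6 and 7 counts in WT RO. None of the nearest genes named here was one of the other 3 members or of the listed markers. The smallest distance between members was 0.57, between Myh11 and Sox17, and the largest was 3.87, between Gata4 and Cd93. With only 4 libraries many genes lie close to any profile, and the distances are descriptive.

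The peak lists, 1 for each genotype and fraction, held 12 peaks of the 4 genes. Each gene had at least 1 peak in some list, as it had to in order to carry a symbol here. The WT PA list had peaks in Myh11 and Cd93, the KO PA list in Myh11, Gata4 and Sox17, the WT RO list in Myh11 and Gata4, and the KO RO list in Myh11 and Sox17. Among all 8733 genes with a symbol, 53.9%, 69.7%, 66.4% and 63.9% had a peak in these lists, so that 2 or 3 of 4 genes per list is near the background. Positions below count from 1 on the build mm10 named in the submitters' processing notes, all genes lie on the minus strand, and classes, folds and false discovery rates are the authors'. The fold enrichment of immunoprecipitated over input RNA depends on each pair of libraries and was compared only within a list.

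Myh11 lies on chromosome 16 from 14194527 to 14292188 in RefSeq (GRCm38.p6, the assembly behind mm10). It was the only one of the 4 with a peak in every list, and in each a peak of the class 3′ untranslated region sat at its 3′ end. The authors' deposited table of WT PA peaks has it from 14194975 to 14200715 in 3 blocks with a fold of 3.07, a low value in a list whose median fold is 11.7. That of KO PA peaks, also the authors' deposited table, has it from 14194826 to 14202129 in 5 blocks with a fold of 9.19. For RO the authors' deposited table has it from 14195035 to 14198079 in 2 blocks with a fold of 8.30 in WT, and in KO from 14194826 to 14200775 in 3 blocks with a fold of 19.4. The KO RO peak stood above 68.7% of the peaks of its list by fold, and the others above 5.36% (WT PA), 32.8% (KO PA) and 23.9% (WT RO).

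The 4 versions of this peak nested inside each other. All 180 exonic bp of the WT RO peak were covered in every other list, as 150 bp from 14195035 to 14195184, which is 508 to 657 bp from the 3′ end of the gene, and 30 bp from 14198050 to 14198079 in a separate block. The WT PA peak covered 270 bp, the KO RO peak 479 bp and the KO PA peak 747 bp, and each shorter one lay wholly within the next. In all lists the block at the 3′ end stopped at 14195184, and the next block of the same peak began at 14198050. The shared base is thus an edge between exonic blocks and not the end of a peak. In both KO lists the block at the 3′ end reached 299 bp from the 3′ end of the gene. The input count of Myh11 was lower in KO PA (2943) than in WT PA (3347) and higher in KO RO (2473) than in WT RO (1642). The depth of the immunoprecipitated libraries was not analysed here, and the part of either in peak width was not tested.

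**Figure D4:**
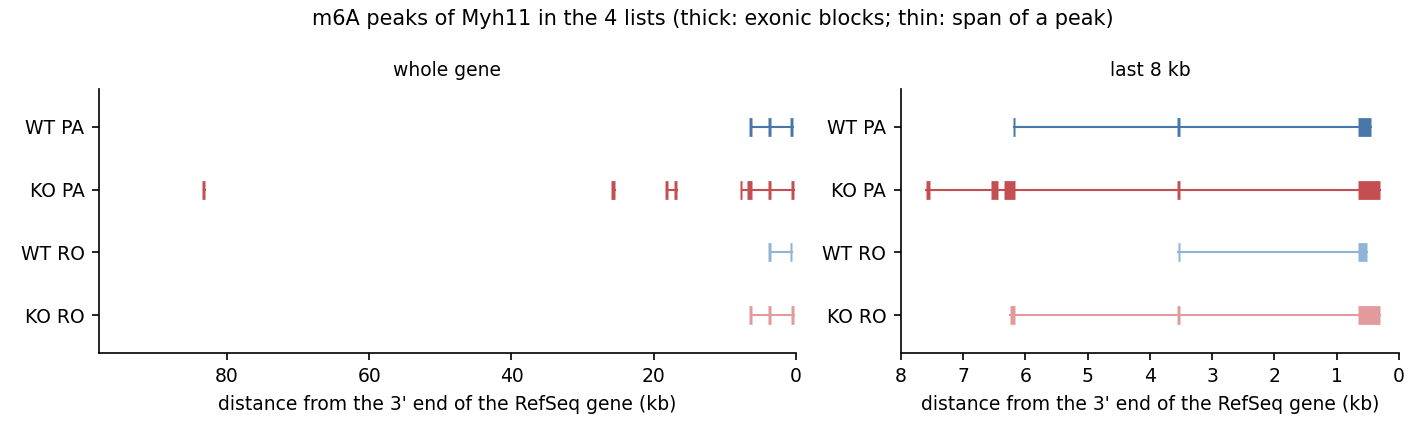
Position of the Myh11 peaks in the WT PA, KO PA, WT RO and KO RO lists, as distance in kb from the 3′ end of the RefSeq gene, for the whole gene (left) and its last 8 kb (right). Thick bars are exonic blocks, with short blocks drawn at a minimum width, and thin lines join the blocks of a peak. All 4 lists share a block at 508 to 657 bp, and the KO PA list alone has 3 further peaks between 16794 and 83279 bp.

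In the KO PA list Myh11 had 3 further peaks in coding sequence. By the authors' deposited table they lay from 14211321 to 14212647 (fold 3.48), from 14219970 to 14220177 (fold 2.17) and from 14277627 to 14277806 (fold 5.26). The first and second of these had 2 blocks each, and the fold of the second was above only 1.14% of the peaks of the list. None had a counterpart in the other lists. The share of all KO PA peaks without a counterpart was not computed, and this list was the longest, with 9931 peaks against 7502 in WT PA. Among genes of at least 100 CPM, 67.0% had a peak in KO PA and 53.5% in WT PA.

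Gata4 (chromosome 14, 63198914 to 63271712) had peaks of the class 5′ untranslated region in 2 lists. The KO PA peak in the authors' deposited table ran from 63241431 to 63241580 with a fold of 5.08 and a false discovery rate of 0.0363. The WT RO peak in the authors' deposited table had 2 blocks, from 63241550 to 63241645 and from 63245151 to 63245234, with a fold of 16.1. The peaks shared 31 bp, which is 20.7% of the KO PA peak and 17.2% of the WT RO peak. The lists with the peak had 203 (KO PA) and 252 (WT RO) input counts, and those without had 308 (WT PA) and 164 (KO RO). From the 5′ end of the RefSeq gene to the nearer edge of the peak the distance was 30132 bp in KO PA and 26478 bp in WT RO.

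Sox17 (chromosome 1, 4490928 to 4497426) had the same peak in both KO lists and none in the WT lists. The share of all genes with peaks in both KO lists only was not computed. The depth of the immunoprecipitated libraries was not analysed, and a difference in methylation between genotypes was not tested. By the authors' deposited table it covered 180 bp of coding sequence from 4491796 to 4491975, with a fold of 14.3 in KO PA and 9.90 in KO RO. The false discovery rates in the authors' deposited table were 0.000603 and 0.0145. Input counts of Sox17 were 155 and 100 in these KO libraries and 128 and 102 in the WT libraries, so the lists with and without the peak overlapped in input. At the same input level a peak was found for 12.3% of genes in KO RO (3 to 10 CPM) and 30.6% in KO PA (10 to 30 CPM), against 14.3% in WT RO and 24.4% in WT PA.

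Cd93 (chromosome 2, 148436651 to 148443535) had 1 peak, in the library pair with the second highest Cd93 count. Per the authors' deposited table it covered 151 bp of the 3′ untranslated region from 148437598 to 148437748 with a fold of 6.32 and a false discovery rate of 0.956. The p-value in the authors' deposited table is 0.049, and the peak would be lost under a false discovery rate of 0.05. KO PA, with 540 counts the library with the most Cd93 input, had no peak, and neither had KO RO with 311 counts. In WT RO, where Cd93 had 20 counts, 5.81% of genes of 1 to 3 CPM had a peak.

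The endothelial markers were unevenly listed. Of the 15 with a symbol, 9 had a peak in WT PA and 13 in KO PA, against 2 (WT) and 11 (KO) in the RO lists. Without Cd93 and Sox17 these were 8 and 12, and 2 and 10, of 13. Over all genes with a symbol, the shares with a peak were 53.9% and 69.7% in PA and 66.4% and 63.9% in RO. The WT RO list, which had the fewest, belongs to the library with the lowest endothelial sum, and the 2 markers were Vwf and Cdh5. Of the 10 Sertoli markers, 7, 6, 8 and 5 had a peak in the 4 lists in the same order, and of the 7 muscle markers 4, 5, 3 and 6. The part of input level in these counts was not tested.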

How the data were processed

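Per the labels' protocols, TRIzol RNA was broken by zinc chloride into fragments of 100 to 200 nt, immunoprecipitated with a polyclonal m6A antibody, and made into libraries with a NEBNext Ultra II kit. The submitters' processing notes name cutadapt 2.5, HISAT2 2.1.0, HOMER 4.10.4 and the build mm10 without roles; the counting tool, strand setting and peak caller are not given in the sources used here. The authors deposited whole-number counts per Ensembl gene for the 4 input libraries. They also deposited 4 peak lists, each from 1 pair of libraries, with a p-value, log10 p-value and log10 false discovery rate (entered as scores, since they fall below the usual log range) and a fold enrichment ratio per peak, per the file headers.

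TMM scaling (edgeR 4.0.16 in R 4.3.3) used the 27202 genes that reached 1 CPM in some library, and gave factors of 0.891 and 0.954 (WT, PA then RO) and 1.09 and 1.08 (KO). Log2 CPM used a prior count of 2, and genes that reached 1 CPM in 1 of the compared libraries were set against a 2-fold threshold, with no p-value. Peaks were compared by exonic blocks with an overlap of at least 1 bp on the same strand (Python 3.11.15, pandas 2.3.3, scipy 1.17.1). Simulated libraries were used to check the scripts. Symbols come from the peak lists and name 8733 genes (16.3%); other listed markers were not analysed here. RefSeq placed all 12 peaks inside the gene of their symbol, and lists no gene that overlaps the 4. No sequence of the 4 genes is printed.

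The 4 genes and the marker lists (Sertoli, smooth muscle, endothelial, Leydig, macrophage, red blood cell, spermatogonia, spermatocyte, spermatid) were chosen with earlier results of these data known. Genes named were the 4 members, the 3 markers of a list with the highest mean CPM and the 3 most similar profiles, of which 1 is not reported here; other markers were named after their values were seen. Alternatives covered scaling (total counts, DESeq2 1.42.0 size factors, TMM over all genes), low-count filters, the prior count, the peak threshold, the overlap rule and the members of a list.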

Additional observations from a re-analysis of the deposited data

Results flagged for a closer look

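The genotype ratio of Myh11 had opposite signs in the fractions, with a log2 ratio KO over WT of -0.073 in PA and 0.67 in RO. The summed level of the 7 muscle markers was likewise lower in KO in PA (log2 ratio -0.27) and level in RO (log2 ratio 0.0076, a ratio of 1.01 with an interval of 0.972 to 1.04). With total counts only as scaling the PA values turned, to a log2 ratio of 0.22 for Myh11 and a KO over WT ratio of 1.02 for the muscle sum. Each rests on 1 library per group, and the difference between the fractions was not tested.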

How the results depend on the processing

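No paired analysis was possible because each group holds 1 library. The 16 ratios of the 4 genes were computed under 4 other settings of scaling or prior, and 59 of the 64 values stayed within the counting interval; 5 moved beyond it and 1 changed sign (Myh11 in PA, 0.22 with total counts only). Total counts in place of TMM shifted all KO over WT ratios by 0.29 in PA and 0.17 in RO on the log2 scale, and raised the share of higher calls in PA from 54.4% to 67.8%. With total counts 1 of the 4 genes, Cd93, passed 2-fold in PA. For RO over PA in WT, total counts, DESeq2 size factors and TMM over all genes each left 1 gene past 2-fold, since Myh11 lies on the threshold. A false discovery rate under 0.05, or a fold of at least 5, left 1 gene with a peak in WT PA, and a reciprocal overlap of 50% left 4 of the 8 pairs of shared peaks. The count of endothelial markers 2-fold higher in KO was 10 to 12 in RO under all settings tried, among them 11 without the 4 genes, and in PA became 7 with total counts only; these settings, those for the muscle count and TMM over all genes were chosen after seeing the data.

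For the summed lists, total counts gave KO over WT ratios of 1.51 (Sertoli, PA), 1.41 (Sertoli, RO), 1.02 and 1.14 (muscle, PA and RO), and 1.93 and 3.51 (endothelial, PA and RO). Without the highest marker they were 1.30 (Sertoli, PA), 0.895 and 1.55 (muscle), and 1.42 and 2.78 (endothelial). Without the 4 genes the muscle ratios were 0.769 in PA and 0.830 in RO. The direction for muscle in PA therefore depends on the scaling. In RO the main ratio was level at 1.01, and it moved to either side without Mylk, the highest marker (1.55), or without Myh11 (0.830). Counting error is wide for Cd93 in WT RO, whose 20 counts allow 1.06 to 2.68 CPM.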

Other observations

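Ratios between the counts of 2 genes inside a library do not depend on scaling. Cd93 had 2.71 counts per count of Sox17 in WT PA, 3.48 in KO PA and 3.11 in KO RO, but 0.196 in WT RO. The WT RO value restates the 20 counts of Cd93 in that library. Myh11 had 26.1 and 16.1 counts per count of Sox17 in the WT libraries of PA and RO, and 19.0 and 24.7 in those of KO, a narrower range. Gata4 had 2.41 and 2.47 counts per count of Sox17 in WT PA and WT RO, and 1.31 and 1.64 in KO PA and KO RO, lower in both KO libraries. These pairs were looked at after the values were seen. Intervals for counting error of the Gata4 ratio were 1.95 to 2.98 in WT PA and 1.06 to 1.62 in KO PA, which do not overlap, and 1.96 to 3.14 in WT RO and 1.27 to 2.12 in KO RO, which do.

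Spermatogonial markers, of which 4 of 10 had a symbol, summed to 33.5 CPM in WT PA and 63.8 CPM in KO PA, and to 23.9 and 47.3 CPM in the RO libraries, higher in KO in both fractions. None of the 5 red blood cell markers had a symbol here.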
